A study of Mus musculus with 8 samples.

Results

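The 45 genes of this set belong to the interferon response and to antigen presentation, and were taken as a fixed list of gene symbols out of 55413 genes of the GENCODE M21 annotation. DNA methylation was read by reduced representation bisulfite sequencing (RRBS), in which bisulfite turns unmethylated cytosines into uracil and only fragments between restriction sites are sequenced. A CpG cytosine counted as measured when each of the 8 libraries covered it with 10 or more reads, and a gene when its body or the 2000 bp upstream held such a cytosine. Of the 45 genes, 35 were measured, with 398 of the 567886 cytosines that passed this limit.

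The tumors grew from NIC-5231 mouse mammary tumor cells placed in the fat pad of NSG mice aged 5 to 7 weeks, a strain without lymphocytes and natural killer cells. Groups of 5 mice were given vehicle (DMSO with PEG in saline), the drug C29 (10 mg/kg), the drug 5-azadC (1 mg/kg), or both drugs at these doses, by injection every 2 days. C29 inhibits the nuclear receptor ERRα, and 5-azadC (decitabine) traps DNA methyltransferases. Each group had 2 libraries, and tumor DNA of 2 mice was pooled for a library, so the spread between single animals was not measured. In the lists below, values stand in the order vehicle 1 and 2, C29 1 and 2, 5-azadC 1 and 2, and the combination 1 and 2.

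Interferons are made when sensors detect foreign or misplaced nucleic acid. RIG-I (Ddx58), MDA5 (Ifih1) and LGP2 (Dhx58) bind double-stranded RNA in the cytoplasm and, apart from LGP2, pass the signal to the adaptor Mavs, while Tlr3 signals from endosomes through a different adaptor, Ticam1. Secreted interferon binds Ifnar1 with Ifnar2, or Ifngr1 with Ifngr2. Kinases, among them Jak1 at both receptors and Tyk2 at the first only, then activate STAT factors. These bind the interferon-stimulated response element (ISRE) or the gamma-activated site (GAS) of target genes. Many of the targets are antiviral proteins, and others load peptides onto class I molecules. Drugs such as 5-azadC are known for inducing this response in tumor cells through transcripts of endogenous retroviruses. No RNA was measured here, so the values below describe methylation of these genes and not their expression.

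RRBS reached the start-site regions of 23 of the 45 genes and the bodies of 34, and 22 genes had both. The start-site region ran from 2000 bp before to 500 bp after the annotated 5′ end, and the body was the rest of the gene. The genes with neither part measured were B2m, Ccl5, Ifi44, Ifit1, Ifit3, Isg15, Mx1, Mx2, Oas1a and Zbp1, most of them classical antiviral effectors. By role, a start-site region was measured for 6 of 9 sensors and nucleic acid handling genes, 7 of 8 receptor and signalling genes and 6 of 10 antigen presentation genes, but for 3 of 16 antiviral effectors and 1 of 2 chemokines. The measured and unmeasured genes differed in sequence. The 23 measured start-site regions held 37 to 100 CpGs (median 71) and 4 to 14 CCGG sites (median 7), the sequence that MspI, the usual RRBS enzyme, cuts. The other 22 held 11 to 67 CpGs (median 25.5) and 0 to 7 CCGG sites (median 1.5), and 11 of them held at most 1 such site.

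**Figure D1:**
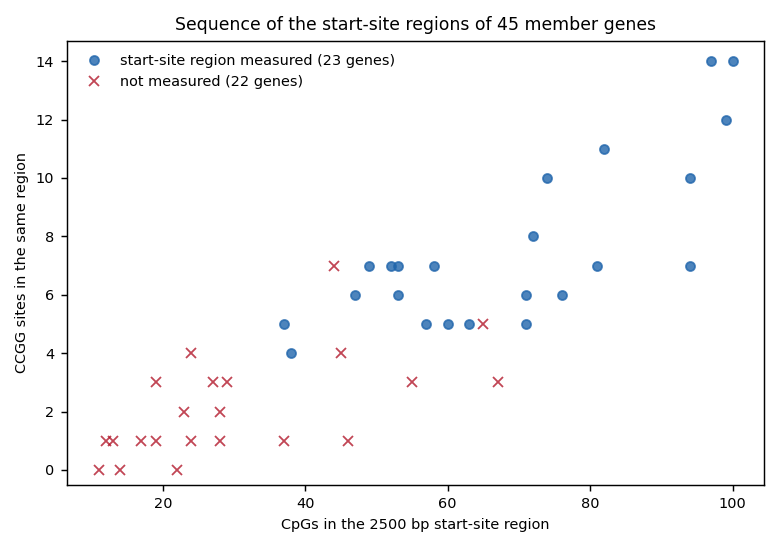
Number of CCGG sites against number of CpGs in the 2500 bp start-site region of each of the 45 genes, with measured regions as circles and the others as crosses. Measured regions lie at 4 or more CCGG sites, and most others lie below that at fewer CpGs.

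In RefSeq promoter windows (GRCm38.p6, 250 bases before to 50 after a start), which matched 35 of the 45 genes, the ISRE core (GAAA, any 2 bases, then GAAA) was present on either strand for 13 genes (37.1%), against 3.99% of 27025 genes. Windows were not listed for Dhx58, Zbp1, Usp18, Mx1, Mx2, Oas2, Tap2, Nlrc5, Ciita and Ccl5. The GAS core TTCNNNGAA, which reads the same on both strands, was present for 10 of the 35 (28.6%), against 9.55% of all genes. Among 50 other genes of these pathways with a window, the ISRE core was present for 19 (38.0%) but the GAS core for only 3 (6.0%). Of the 13 genes with an ISRE core, 6 had a measured start-site region and 7 did not. The upstream 250 bases of 3 promoters are printed with the ISRE core in capitals, 5′ to 3′ on the strand of the gene, because they show both cases. Cxcl10, a T cell chemoattractant, was measured from its 5′ end to 40 bp downstream of it. Bst2 (tetherin), which holds budding virions at the cell surface, was measured just upstream of its printed promoter. Isg15, a ubiquitin-like protein conjugated to targets during infection, was not measured.
Cxcl10, chr5:92348890-92349139: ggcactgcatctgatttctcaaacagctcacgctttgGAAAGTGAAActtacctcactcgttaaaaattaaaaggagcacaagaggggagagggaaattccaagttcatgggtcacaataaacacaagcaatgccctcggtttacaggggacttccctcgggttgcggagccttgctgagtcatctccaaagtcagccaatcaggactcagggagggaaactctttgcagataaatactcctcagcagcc
Bst2, chr8:71537473-71537722: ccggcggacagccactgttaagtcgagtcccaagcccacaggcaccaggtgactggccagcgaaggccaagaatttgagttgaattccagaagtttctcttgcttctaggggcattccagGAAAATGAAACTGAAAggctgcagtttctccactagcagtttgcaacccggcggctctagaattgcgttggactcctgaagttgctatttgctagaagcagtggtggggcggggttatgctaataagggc
Isg15, chr4:156200819-156201068: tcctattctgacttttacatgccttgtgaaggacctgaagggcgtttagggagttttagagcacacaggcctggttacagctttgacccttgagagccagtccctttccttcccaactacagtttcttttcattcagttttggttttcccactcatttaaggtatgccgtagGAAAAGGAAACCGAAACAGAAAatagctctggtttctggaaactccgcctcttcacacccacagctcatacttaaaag

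In vehicle, 18 of the 23 measured start-site regions were under 10% methylated, and the same 18 stayed under 10% in all 8 libraries. The share was 59.0% over the start-site regions of all genes in vehicle and 70.9% over those of protein-coding genes. For 1 of the 18, Tapbp, the RefSeq promoter window (chr17:33919228-33919527) lies outside the start-site region used here (chr17:33913899-33916398). Ddx58, Ifngr1, Stat2, Psmb9 and Tap1 had no methylated read in any library. With no methylated read, 3 reads of the total were taken as the limit that a count of 0 allows. This limit ranged from 0.191% to 30.0% over the 116 of 184 values at 0, with a median of 1.38%, and the highest belonged to a library in which Oasl1 had 10 reads. Intervals and limits of this kind cover counting error only, since PCR copies of a molecule were not marked.

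Within 500 bp of the 5′ end, on either side, 19 members had 144 measured cytosines. All 19 were under 10% in all 8 libraries with reads pooled, against 61.0% of 16358 genes and 70.8% of 11856 protein-coding genes measured at this distance. Of the 144 cytosines, 116 were at 0% in every library and 130 did not exceed 10% in any. Farther away, 60 of 254 cytosines also stayed at or under 10% in all libraries, in Adar, Ciita, H2-D1, H2-K1, Ifit2, Jak1, Mavs, Tap2 and Tapbp. The 23 entries of start-site cytosines above 50% in vehicle all lay 701 to 1987 bp upstream, in 5 genes (Dhx58, Mavs, Usp18, Isg20 and Psmb8).

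**Figure D2:**
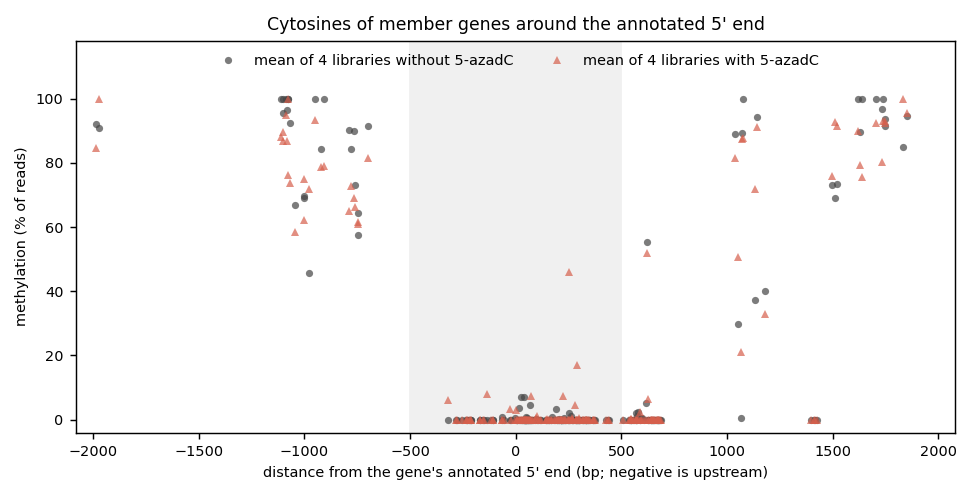
Percent methylation of each measured member cytosine against its distance from the annotated 5′ end of its gene, as the mean of the 4 libraries without (circles) and the 4 with 5-azadC (triangles), with the 500 bp on either side shaded. Cytosines in the shaded part sit near 0% apart from 1 of Jak1 and 1 of H2-K1 in the mean with 5-azadC, and the methylated ones lie farther away. The H2-K1 start-site region had 15 methylated of 561 reads in the first combination library and at most 1 in any other library.

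Windows around unmethylated cytosines are shown for Psmb8, an immunoproteasome subunit, for Bst2, and for Ifngr2, a chain of the interferon gamma receptor. The measured CpGs are in capitals, in RefSeq GRCm38.p6, 5′ to 3′ on the strand of the gene. All 3 windows lie upstream of the gene, outside annotated exons.
Psmb8, chr17:34197644-34197674: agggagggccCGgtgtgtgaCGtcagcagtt
Bst2, chr8:71537724-71537785: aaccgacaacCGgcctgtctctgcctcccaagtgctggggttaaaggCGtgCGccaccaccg
Ifngr2, chr16:91546926-91546975: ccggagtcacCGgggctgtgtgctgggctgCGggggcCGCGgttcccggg
In the Psmb8 window, 47 to 77 bp upstream of the 5′ end, the 3 measured cytosines were at 0% apart from 1 value of 3.03% in C29 2. The 3 cytosines of Bst2 were at 0% apart from 1 at 23.9% in the second combination library, and those of Ifngr2 apart from 1 at 32.1% in the first. Psmb9 and Tap1, an immunoproteasome subunit and a chain of the peptide transporter, are transcribed in opposite directions from a shared promoter, and the same 3 cytosines stood for both.

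In the 5 start-site regions at 20% or more in vehicle, the methylated cytosines were distant ones. Dhx58 had 11 cytosines 907 to 1113 bp upstream, which lie at the end of the neighbouring gene Kat2a. They were at 97.9%, 96.7%, 98.4%, 94.9%, 79.9%, 91.8%, 72.0% and 97.3%, so that 3 of the 4 libraries with 5-azadC lay below every other library and the fourth did not. The means were 85.3 ± 11.5% with and 97.0 ± 1.56% without 5-azadC (SD, 4 libraries each), a difference of −11.7 points with an exact permutation p of 0.0857. Psmb8 had 10 cytosines at 55.7%, 61.2%, 75.1%, 41.6%, 63.3%, 53.9%, 47.0% and 60.9%, and its 7 methylated ones, 701 to 791 bp upstream, lie in the last exon of Tap1 and were also counted in the Tap1 body. Isg20, an exonuclease that degrades viral RNA, had 4 cytosines 981 to 1046 bp upstream of its 5′ end and outside annotated exons, at 60.7%, 72.9%, 61.4%, 54.3%, 32.3%, 65.4%, 94.4% and 78.4%. Libraries with 5-azadC took both the lowest and the highest of these values. The coding part of the Dhx58 window and the Isg20 window follow, with measured CpGs in capitals.
Dhx58, chr11:100705241-100705394: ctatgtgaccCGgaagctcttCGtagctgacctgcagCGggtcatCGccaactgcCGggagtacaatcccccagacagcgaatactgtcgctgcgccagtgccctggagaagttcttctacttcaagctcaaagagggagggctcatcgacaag
Isg20, chr7:78912368-78912453: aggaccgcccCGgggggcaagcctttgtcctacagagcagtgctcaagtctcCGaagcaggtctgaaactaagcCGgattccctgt

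Mavs and Usp18, the latter a protease that removes ISG15 and dampens receptor signalling, had a single measured cytosine each, 1987 and 1972 bp upstream. The Mavs cytosine was at 100%, 79.5%, 88.9%, 100%, 100%, 38.0%, 100% and 100%, with 12 to 82 reads. The low value of the second 5-azadC library, with a Wilson 95% interval of 27.6% to 49.7%, stood alone. The Usp18 cytosine was at 100% in 7 libraries and at 62.9% in C29 1.

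Comparisons of 2 libraries with 2 used the logistic test of methylKit on reads summed over a region, and a region was called at a Benjamini-Hochberg q below 0.01 over all genes and a difference of at least 25 points in pooled methylation. This test counts reads and takes no account of the spread between libraries of a group, so its q-values cover counting error only, whereas the F test and edgeR below include that spread. These comparisons share their vehicle or 5-azadC libraries. Among the 23 start-site regions, 0 were called for C29 against vehicle (3.96% of all genes' regions were called) and 0 for the combination against vehicle (5.16%). For 5-azadC against vehicle 1 was called lower, Mavs, by −43.0 points (q = 3.8e-12), beside 5.12% of all genes called and 4.09% called lower. Without the second 5-azadC library this difference was 10.0 points, and Isg20 was called in place of Mavs. For the combination against 5-azadC, Mavs (53.0 points, q = 1.2e-17) and Isg20 (34.4 points, q = 1.6e-23) were called higher, beside 4.52% of all genes called and 2.59% called higher. Only Isg20 of these had both combination libraries above both 5-azadC libraries, beside 2.97% of all genes called with no overlap. Without the second 5-azadC library the Mavs difference was 0, and that of Isg20 fell under the 25-point minimum without the first 5-azadC library (22.5 points) or the first combination library (24.9 points). None of these calls rested on a cytosine within 500 bp of a 5′ end, and with the region cut to 500 bp on either side there were 0 in each of these 2 comparisons. With 2 libraries per group, the F test corrected for overdispersion passed 0 regions at q below 0.05, and at an unadjusted p below 0.05 it had 0, 0, 1 (Jak1) and 0 members for C29, 5-azadC and the combination against vehicle and the combination against 5-azadC, beside 4.07%, 4.91%, 4.66% and 3.91% of all genes. Over all 8 libraries, with the F test corrected for overdispersion, 0 start-site regions passed q below 0.05 for 5-azadC or for C29, as did 0% of all genes. At an unadjusted p below 0.05 there were 3 members for 5-azadC, Jak1 (higher), Dhx58 and Tapbp (lower), beside 9.37% of all genes, and 0 for C29, beside 7.24%. Tapbp was at 2.31% in vehicle 2, at 1.18% in C29 1 and at 0% in every other library, with an exact permutation p of 0.429 for 5-azadC. By edgeR 0 members passed for either drug, and 0 had an unadjusted p below 0.05, beside 3.95% of all regions for 5-azadC and 2.91% for C29.

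A cytosine of Jak1 near the start was higher with 5-azadC and was singled out after its values were seen. At 251 bp downstream of the 5′ end of this gene, a minus-strand cytosine in an intron was at 0% in the 4 libraries without 5-azadC and in the first 5-azadC library. It was at 20.6%, 63.6% and 100% in the second 5-azadC library and both combination libraries, on 63, 11 and 12 reads. The start-site region as a whole, with 25 cytosines, stayed at or under 1.53% in all libraries.

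The bodies were mostly methylated, and more so than those of other genes. The median over the 34 bodies was 79.3% in vehicle, against 59.8% over 18900 gene bodies. By library the member median was 89.8%, 79.3%, 86.8%, 80.5%, 73.7%, 77.0%, 75.5% and 75.9%, so that each of the 4 libraries with 5-azadC lay below each of the other 4. The same was true of all gene bodies, with medians of 59.7%, 59.4%, 59.7%, 56.0%, 49.6%, 50.9%, 51.4% and 52.2%. Receptor and signalling genes had the highest vehicle median (92.1%), followed by sensors (84.6%), antiviral effectors (80.6%) and antigen presentation genes (59.8%). The bodies of the class I genes H2-K1 and H2-D1, with 13 and 17 cytosines, and of the RNA-editing enzyme Adar, with 9, were at or under 1.74% in every library. How reads of H2-K1, H2-D1 and their near-identical relatives were assigned was not tested. The mouse strain of the cell line is not given in the sources used here, and a T in its genome at a reference cytosine would also read as unmethylated, which was not tested for any of these genes. Libraries of a group differed by a median of 4.21 points in a member body in the vehicle group, 8.09 for C29, 9.12 for 5-azadC and 8.36 for both drugs.

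**Figure D3:**
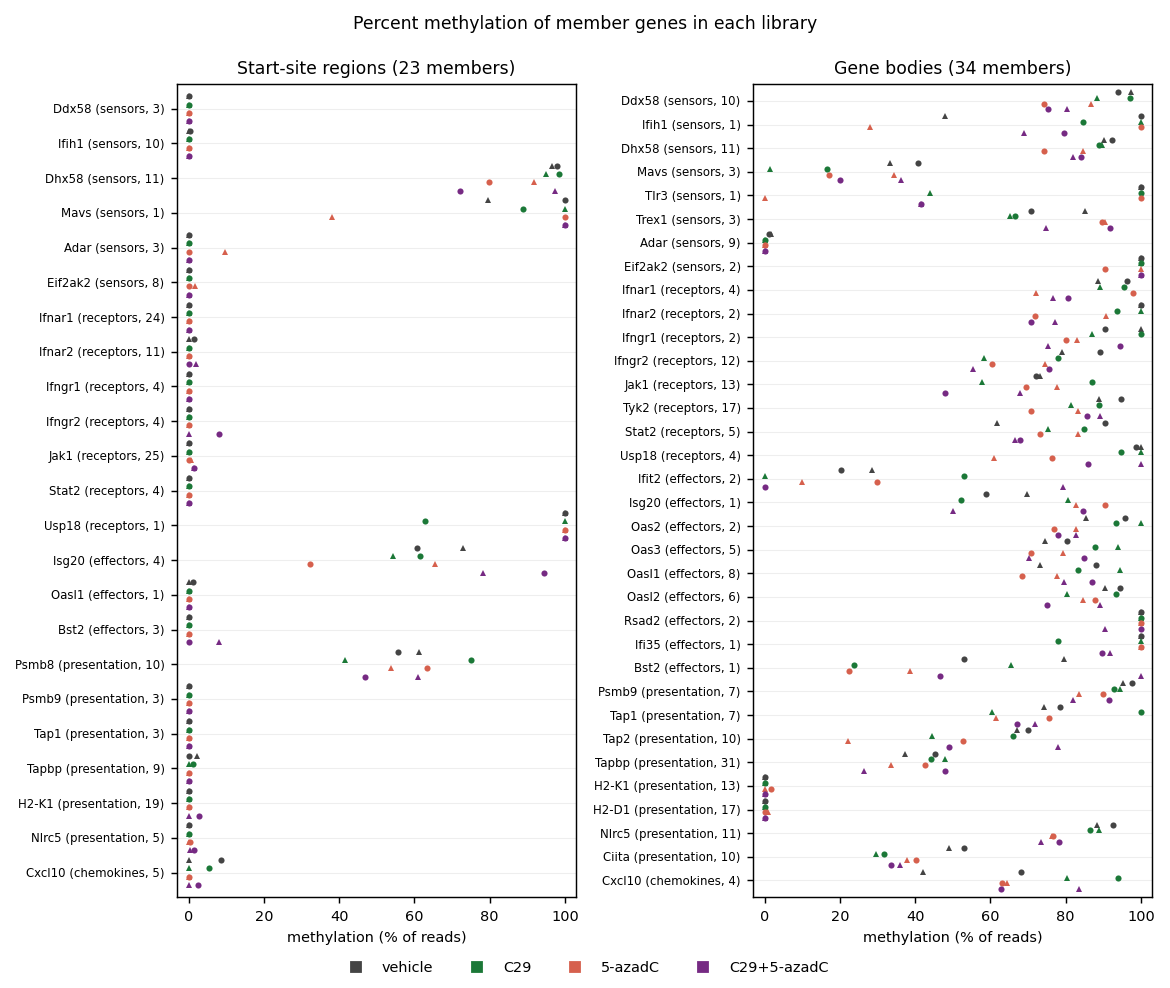
Percent methylation (x axis) of the start-site region (left) and body (right) of each measured gene in each library, with role and number of cytosines in brackets, colors for the 4 groups, and a circle and a triangle for the first and second library of a group. Start-site regions sit near 0% except those of Dhx58, Mavs, Usp18, Isg20 and Psmb8, and most bodies lie above 60%.

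With 5-azadC, bodies of the set were lower on the whole, as were those of other genes. Comparing the mean of the 4 libraries with 5-azadC with that of the 4 without, 27 of 34 member bodies were lower and 7 higher, while 76.1% of all gene bodies were lower and 21.8% higher. The median difference was −6.47 points over the members and −4.86 over all genes. No member passed the F test at q below 0.05 (12 of 18900 bodies did, 0.0635%), and 9 had an unadjusted p below 0.05, beside 17.9% of all genes. By edgeR 0 member bodies and 1 of all bodies passed, and 6 members had an unadjusted p below 0.05, beside 13.5% of all bodies. In 6 of the 34 members all 4 libraries with 5-azadC lay below all 4 others, beside 9.97% of all genes. They were Ddx58, Dhx58, Ifnar2, Nlrc5, Oas2 and Psmb9. An exact 2-sided permutation test gives any such split p = 0.0286, the smallest that 4 libraries against 4 allow. This p therefore adds nothing to the lack of overlap by which the 6 were picked.

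Among the RNA sensors, the Ddx58 body was at 93.9%, 97.3%, 97.2%, 88.3%, 74.3%, 86.6%, 75.3% and 80.3% over 10 cytosines. Its means were 79.1 ± 5.64% with and 94.2 ± 4.22% without 5-azadC, a difference of −15.01 points (F test q = 0.174). Of the 10 cytosines, 9 lie within a stretch of 280 bp, in an exon of a noncoding Ddx58 transcript, and are printed below. Dhx58, which modulates signalling by the other sensors, was at 92.4%, 90.1%, 89.0%, 89.8%, 74.2%, 84.5%, 84.2% and 82.1% over 11 cytosines, a difference of −9.08 points (q = 0.162). In both genes the 2 sets of libraries did not overlap.

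Ifnar2, the ligand-binding chain of the type I interferon receptor, was at 100%, 100%, 93.8%, 100%, 72.0%, 90.8%, 70.9% and 77.2%, from 2 cytosines of an intron 75 bp apart. The means were 77.7 ± 9.13% with and 98.4 ± 3.13% without 5-azadC, a difference of −20.7 points (q = 0.135). Its start-site region was at or under 1.92% in the same libraries. The windows of Ddx58 and Ifnar2 are given with measured CpGs in capitals.
Ddx58, chr4:40227361-40227640: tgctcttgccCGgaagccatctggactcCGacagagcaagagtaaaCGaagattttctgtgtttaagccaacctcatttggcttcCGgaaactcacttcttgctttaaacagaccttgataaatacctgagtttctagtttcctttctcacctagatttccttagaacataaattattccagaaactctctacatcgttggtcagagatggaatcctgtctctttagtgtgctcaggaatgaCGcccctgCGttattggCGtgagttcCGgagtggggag
Ifnar2, chr16:91378125-91378220: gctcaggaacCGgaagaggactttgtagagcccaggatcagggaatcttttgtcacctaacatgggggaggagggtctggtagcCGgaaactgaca

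Nlrc5, Oas2 and Psmb9 were outside the rule for named genes and are given because their libraries did not overlap. Nlrc5, the transactivator of class I genes, was at 92.6%, 88.3%, 86.4%, 88.9%, 76.6%, 76.3%, 78.2% and 73.4% over 11 intronic cytosines. The means were 76.1 ± 2.02% and 89.0 ± 2.58%, and the difference of −12.9 points had the smallest F test q of the member bodies (0.0732). Oas2, which makes the oligoadenylates that activate RNase L, ranged from 85.4% to 100% without and from 76.9% to 82.8% with 5-azadC. The Psmb9 body ranged from 92.9% to 97.6% without and from 82.1% to 91.4% with 5-azadC.

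**Figure D4:**
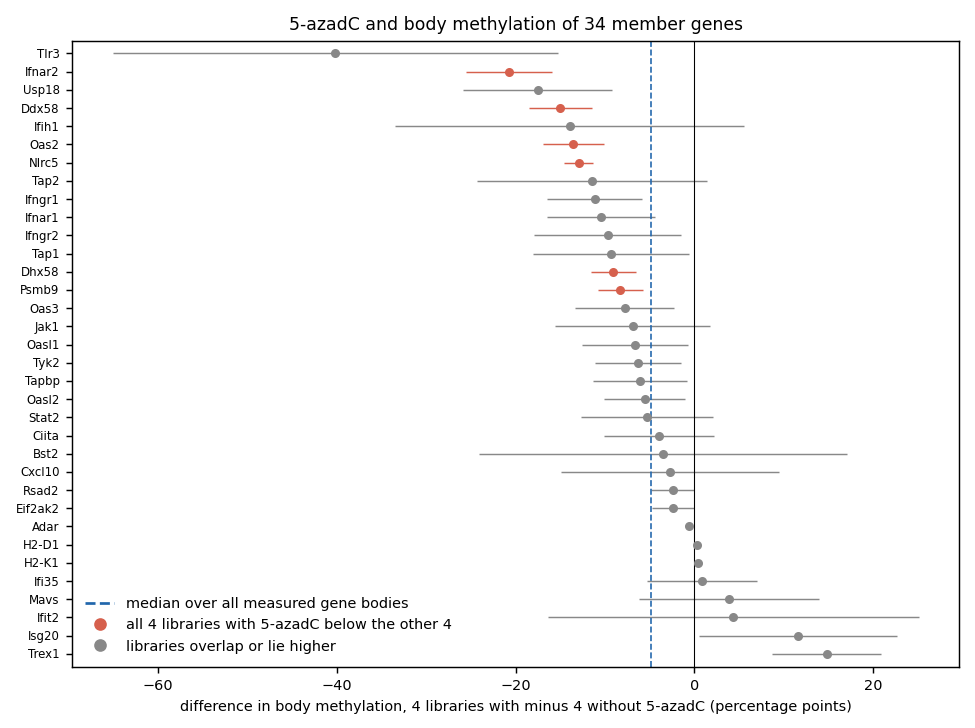
Difference in body methylation between the 4 libraries with and the 4 without 5-azadC, in percentage points, for each of the 34 member genes, with bars of 1 standard error on either side. Red points mark the 6 genes whose libraries did not overlap, and the dashed line marks the median over all gene bodies, −4.86.

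Trex1, an exonuclease that removes cytoplasmic DNA, had the largest rise among member bodies. It was at 70.8%, 85.1%, 66.7%, 65.1%, 89.7%, 90.4%, 91.8% and 74.7% over 3 neighbouring cytosines of its coding exon. The means were 86.7 ± 8.06% with and 71.9 ± 9.09% without 5-azadC, a difference of 14.8 points (exact permutation p = 0.0571), and the libraries overlapped.

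In comparisons of 2 libraries with 2, 4 member bodies were called for 5-azadC against vehicle, all lower, beside 7.11% of all gene bodies called and 6.17% called lower. By the F test with 2 libraries per group, 0 bodies passed q below 0.05 in any of the 4 comparisons, and 2, 4, 6 and 0 members had an unadjusted p below 0.05 in the order used for start-site regions, beside 4.33%, 8.96%, 7.42% and 4.39% of all gene bodies. Tlr3, with a single intronic cytosine on 15 to 49 reads, was at 100%, 100%, 100%, 44.0%, 100%, 0%, 41.7% and 41.7%. It was called for 5-azadC (−53.1 points, q = 1.9e-11) on the second library alone, whose 0 of 17 reads allow up to 17.6%, and the difference was 0 without it. It was also called for the combination against vehicle (−58.3 points, q = 4.7e-16), where both libraries lay below both vehicle libraries. Usp18 had 4 intronic cytosines and was at 98.8%, 100%, 94.6%, 100%, 76.3%, 61.1%, 85.9% and 100%, a difference of −30.1 points against vehicle (q = 5.9e-37). Of its cytosines, 1 lay 17874 bp from the 5′ end and was at 100% in the 4 libraries without 5-azadC, at 4.76% and 0% in the 5-azadC libraries on 21 and 15 reads, and at 52.5% and 100% in the combination libraries. The Tlr3 and Usp18 cytosines stand in the following windows.
Tlr3, chr8:45399419-45399479: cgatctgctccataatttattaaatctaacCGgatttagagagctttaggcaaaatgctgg
Usp18, chr6:121263750-121263810: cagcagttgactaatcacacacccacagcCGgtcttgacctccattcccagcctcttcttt

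Bst2 and Tap2 completed the 4. The single Bst2 body cytosine, 619 bp from the 5′ end, was at 52.9%, 79.5%, 23.6%, 65.5%, 22.5%, 38.7%, 46.5% and 100%, with 11 reads behind the last value. It was called lower for 5-azadC against vehicle (−36.4 points, q = 2.5e-07) and higher for the combination against 5-azadC (26.6 points, q = 0.0011), and C29 1 lay between the 5-azadC libraries. Without the second vehicle library the first difference was −22.2 points, and the latter was 18.7 points without the first 5-azadC library and 15.7 without the second combination library, all under the minimum. Tap2, the partner of Tap1 in the peptide transporter, was at 70.0%, 67.1%, 66.1%, 44.4%, 52.6%, 22.1%, 49.1% and 78.0% over 10 cytosines (−32.1 points, q = 1.3e-41). The Tap2 call was absent with means over cytosines, strands summed and a coverage minimum of 20 reads. Without the second 5-azadC library the Tap2 difference was −16.2 points and the Usp18 difference −23.1, both under the 25-point minimum. With Tlr3 also lost, Bst2 alone of the 4 kept its call, and Ifnar2 was called in addition.

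For the combination against vehicle, 3 bodies were called, Tlr3 and Ifnar2 lower (−25.8 points and q = 1.5e-16 for Ifnar2) and Ifit2 higher, beside 6.89% of all genes. Ifit2, which binds viral RNA and was outside the rule for named genes, had 2 cytosines at 20.4%, 28.6%, 52.9%, 0%, 30.0%, 10.0%, 0% and 79.3%. The combination libraries took both the lowest and the highest of these, and the difference of 25.4 points against vehicle turned to −25.7 without the second of them and was 22.5 without the first vehicle library. The Ifnar2 difference was −22.8 points without the first combination library. The combination against 5-azadC gave 3 calls (Ifit2 and Bst2 higher, Isg20 lower), beside 5.52%. Of these only Bst2 had both libraries on one side of both others, beside 3.9% of all gene bodies called in this way. The Isg20 difference was −21.9 points without the first 5-azadC library and −1.55 without the second combination library, and that of Ifit2 was 21.1 without the second 5-azadC library and −18.6 without the second combination library.

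For C29 against vehicle, 2 bodies were called, Mavs lower and Cxcl10 higher, beside 4.40% of all genes. The Mavs body was at 40.7%, 33.3%, 16.7%, 1.49%, 17.1%, 34.4%, 20% and 36.2% over 3 cytosines (−28.2 points, q = 3.1e-17). Both C29 libraries were below both vehicle libraries, but so were the first 5-azadC and the first combination library. The difference was −23.5 points without the first vehicle library and −21.3 without C29 2. The Mavs call was also absent with means over cytosines, strands summed, start-site regions of 1000 bp on both sides, and coverage minimums of 5 and 20 reads. Cxcl10 was at 68.1%, 42.0%, 94.0%, 80.4%, 63.0%, 64.4%, 62.7% and 83.5% over 4 cytosines (33.1 points, q = 2.7e-18), and without the second vehicle library the difference was 18.4 points. Its start-site region did not exceed 8.57% in any library. Over all 8 libraries, 19 member bodies were lower and 15 higher with C29, beside 47.4% and 50.4% of all gene bodies, with a median difference of −0.60 points against 0.04 over all genes. No body passed q below 0.05 for C29 (0% of all genes), and 4 members had an unadjusted p below 0.05, beside 4.90%. All 4 libraries with C29 lay below the others in 2 members, Adar, at or under 1.63% throughout, and Ciita, beside 0.857% of all genes. Ciita, the transactivator of class II genes, was singled out after its values were seen, at 52.9%, 49.1%, 31.8%, 29.5%, 40.3%, 37.9%, 33.5% and 35.9% over 10 cytosines. The means were 32.7 ± 2.70% with and 45.1 ± 7.12% without C29, with an F test q of 0.968. The exact permutation p of 0.0286 follows from the lack of overlap and adds nothing to it.

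Tested one by one, 25 of the 398 member cytosines (6.28%) were called for C29 against vehicle, 35 (8.79%) for 5-azadC, 39 (9.80%) for the combination and 45 (11.3%) for the combination against 5-azadC. The shares over all cytosines were 10.7%, 13.1%, 13.5% and 12.9%. Lower methylation made up 30 of the 35 calls for 5-azadC and 31 of the 39 for the combination, which was 85.7% and 79.5% of the member calls, against 76.2% and 70.4% of the calls over all cytosines. As shares of the cytosines tested, 7.54% and 7.79% of the members' were called lower, against 10% and 9.51% of all. Among member values, 74.4% were exactly 0% or 100%, against 68.7% over all cytosines, and neighbouring cytosines on the same strand often shared a value. In Cxcl10, for example, 3 cytosines within 40 bp of the 5′ end were each at 14.3% of 49 reads in vehicle 1.

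A further 62 genes of the same pathways, listed by role together with the members, had 32 measured start-site regions. Of the 32, 24 were under 10% in vehicle, beside 59.0% over all genes and 70.9% over protein-coding genes. Among the 32, Ikbke was called lower for 5-azadC, Pdia3 lower for the combination and Tapbpl lower for the combination against 5-azadC. The shares of all genes called in these comparisons were 5.12%, 5.16% and 4.52%. Their 37 measured bodies had a vehicle median of 28.5%, against 59.8% over all gene bodies. With 5-azadC 27 of the 37 were lower, beside 76.1% of all gene bodies, with a median difference of −3.23 points against −4.86. In 2 of them all 4 libraries with 5-azadC lay below the others, beside 9.97% of all gene bodies. The body calls numbered 4 for C29 (2 lower and 2 higher), 4 for 5-azadC (all lower), 3 for the combination (2 lower and 1 higher) and 5 for the combination against 5-azadC (all higher). The shares of all gene bodies called were 4.40%, 7.11%, 6.89% and 5.52% in the same order.

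Over the series, the libraries held 51359825 to 81299065 read counts when all cytosines were added up. The median over all listed cytosines was 21 to 30 reads. Member cytosines had a median of 44.5 reads, but over only those with 10 or more reads in all 8 libraries. The 2 medians therefore cover unlike sets. Cell type could be looked at only through methylation of marker genes, and these values were not tested as a measure of it. Of epithelial markers, 7 of 10 start-site regions were measured, with a vehicle median of 12.7% and library means of 12.8% to 19.8%. Of hematopoietic markers 1 of 8 was measured, Itgam, at 48.5% in vehicle and from 0% to 100% over the libraries. Of endothelial markers 2 of 5 were measured, with a vehicle median of 8.89%, and of fibroblast and adipocyte markers 0 of 6. Bodies were measured for 10, 5, 3 and 5 of these markers, and with 5-azadC 8, 3, 3 and 4 of them were lower, with median differences of −5.19, −9.24, −6.37 and −3.86 points. The share of host cells in the tumors, and its part in these values, was not tested.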

How the data were processed

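RRBS libraries of NIC-5231 tumors were grouped by the treatment in the sample labels. The processing notes name Trim Galore 0.4.1, Bismark 0.20.0 and methylKit 1.7.0, with alignment to mm10/GRCm38. Per CpG cytosine and strand, the deposited files give the fraction of methylated reads and a read count, both without normalization by the authors. Multiplying them gave the methylated reads, and every cytosine checked on the members' chromosomes (435813) was a CpG in the genome.

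Cytosines with at least 10 reads in all 8 libraries on chromosomes 1 to 19, X and Y were kept, as single strands. Reads were summed over the start-site region and the body of every GENCODE M21 gene, and tests were adjusted by Benjamini-Hochberg over all genes, for each part. Read counts summed over all deposited cytosines came to 51359825 to 81299065 per library, and a region with few cytosines rests on few reads. The methylKit logistic likelihood-ratio test and its overdispersion-corrected F test were written in Python 3.11.15 (pandas 2.3.3, SciPy 1.17.1, NumPy 2.4.6). The F test was used for 4 libraries against 4. For edgeR 4.0.16 in R 4.3.3, methylated and unmethylated counts were fitted by the quasi-likelihood method. The scripts were tested on simulated data. Figures were drawn with matplotlib 3.10.9.

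The members and lists were chosen with earlier results of these data known. Members named with all values were those with a start-site region at 20% or more in vehicle, those called in a comparison of 2 libraries with 2 with both libraries on one side of both others, and the 5 largest 5-azadC differences in each part. Others are said to have been singled out later. Alternatives were coverage minimums of 5 and 20 reads, leaving out the 0.1% of cytosines of highest coverage, the F test or a replicate block for pairs of groups, a 10-point minimum, start-site regions of 1000 bp on both sides, strands summed, at least 3 cytosines, means over cytosines, edgeR, and leaving out each library. A start-site region of 500 bp on both sides was added after seeing the data.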

Additional observations from a re-analysis of the deposited data

Results flagged for a closer look

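In 11 of 36 sets of 4 libraries tested (the 4 with or the 4 without 5-azadC, for the regions of the named genes), 1 library stood apart from the other 3 by Dixon's ratio with a critical value of 0.829, where chance marks about 1 set in 20. In 8 of the 11 the other 3 libraries had equal values, 0% or 100%, so that any other value would stand apart.

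In start-site regions the marked values were 38.0% for Mavs in the second 5-azadC library, 62.9% for Usp18 in C29 1, 7.97% for Bst2 in the second combination library, 2.39% for Cxcl10 in the first combination library, and 1.44% and 1.92% for Ifnar2 in vehicle 1 and the second combination library. In bodies they were 44.0% for Tlr3 and 44.4% for Tap2 in C29 2, 93.8% for Ifnar2 in C29 1, and 74.7% for Trex1 and 83.5% for Cxcl10 in the second combination library. The Mavs value carried the call for 5-azadC described above, and the Trex1 value was the lowest of the 4 with 5-azadC.

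The body of Ciita went opposite ways with 5-azadC, by −11.9 points against vehicle, with both libraries below both vehicle libraries, and by 4.04 points in the presence of C29, with both libraries above both C29 libraries. The interaction F test gave a q of 0.854 over all gene bodies.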

How the results depend on the processing

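Of the counts and medians recomputed under the alternatives, 215 kept their size and 57 moved by more than 1.5 times or by more than the spread between libraries. Of the differences of single regions, 440 were counted as unchanged, 51 lost their call, 7 moved and 5 reversed. They include differences between libraries with and without 5-azadC in named genes, which were not called and had no call to lose. The 440 therefore does not measure how stable the calls between pairs of groups were. The order of comparisons below is C29, 5-azadC and the combination, each against vehicle, and the combination against 5-azadC.

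Corrected for overdispersion, the F test for pairs of groups called 0 member regions in each comparison and 0 over all genes, so its counts do not separate members from other genes. A 10-point minimum gave 1, 2, 2 and 2 of 23 start-site regions, beside 14.9%, 18.3%, 17.7% and 16% of all genes, and 9, 16, 12 and 7 of 34 bodies, beside 22.2%, 37.2%, 33.2% and 25.3%. With at least 3 cytosines, start-site calls among 20 members were 0 for 5-azadC (1.84% of all genes) and 1 for the combination against 5-azadC (1.39%), and body calls among 23 were 2 for 5-azadC (3.51%) and 0 for both combination comparisons (3.34% and 2.2%). With 1000 bp on both sides, start-site calls among 24 members were 0 for 5-azadC (4.33%), 1 for C29 (3.48%) and 1 for the combination against 5-azadC (3.87%), and body calls among 30 were 1 for C29 (4.85%) and 1 for the combination against 5-azadC (6.23%). With 500 bp on both sides, added after seeing the data, start-site calls among 19 members were 0 for 5-azadC (3.68%) and 0 for the combination against 5-azadC (3.61%). Summed strands gave 1, 2 and 1 of 27 start-site regions against vehicle (3.54%, 4.63% and 4.9%). A coverage minimum of 5 reads gave 1 of 34 bodies for C29 (4.22%). A minimum of 20 reads gave 0 of 14 start-site regions for 5-azadC (4.03%) and the combination against 5-azadC (3.4%), 1, 0, 0 and 1 of 26 bodies (3.76%, 7.6%, 6.98% and 5.41%), 8, 7, 16 and 15 of 212 cytosines (8.47%, 11.2%, 11.4% and 10.3%), and median start-site differences of 0.15 points for 5-azadC and 0.12 for C29.

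Leaving out each library gave 0 to 1, 1 to 1, 0 to 2 and 1 to 2 start-site calls, 1 to 5, 2 to 5, 3 to 5 and 1 to 5 body calls, and 24 to 41, 44 to 66, 47 to 57 and 53 to 59 cytosine calls, so the cytosine counts for 5-azadC and both combination comparisons were larger without any 1 library than with all. The shares over all genes rose too, to between 5.42% and 7.8% of start-site regions, 6.42% and 11.6% of bodies and 13.2% and 17.6% of cytosines. The single start-site call for 5-azadC was Mavs, except without the second 5-azadC library, when it was Isg20. The counts that moved by over 1.5 times were, for start-site regions, 1 for C29 without C29 2, 1 and 2 for the combination without the second vehicle or second combination library, and 1 for the combination against 5-azadC without either 5-azadC library or the first combination library. For bodies they were 1 and 5 for C29 without the second vehicle library or C29 1, 2 for 5-azadC without its second library, 5 for the combination without its first library, and, against 5-azadC, 5 without the first 5-azadC or first combination library and 1 without the second combination library. For cytosines they were 41 for C29 without the first vehicle library or C29 1, and 66 for 5-azadC without its second library. The median body difference stayed between −8.45 and −5.42 points for 5-azadC and between −2.59 and 0.73 for C29. The Ifit2 difference reversed with means over cytosines (−11.6 points against vehicle and −7.41 against 5-azadC) and when a library was left out, where it ranged from −25.7 (without the second combination library) to 53.6 points against vehicle and from −18.6 to 60.7 against 5-azadC. The Mavs start-site difference for 5-azadC ranged from −53.0 to 10.0 points (without the second 5-azadC library). The cause of these changes was not tested.

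Differences between library 1 and library 2 correlated between −0.033 and 0.03 over the 12 pairs of groups and parts. No shift shared by replicate number was therefore seen, but these correlations cannot show whether libraries of the same number shared a batch. With the replicate block, the number of member regions called did not change in any comparison. The shares of all genes called were 3.88%, 5.04%, 5.08% and 4.44% for start-site regions, and 4.32%, 7.05%, 6.82% and 5.46% for bodies. Cytosine calls numbered 22, 35, 39 and 45 of 398 in the same order, beside 10.4%, 12.8%, 13.2% and 12.5% of all cytosines. Depth limits single cytosines most, where 10 reads give steps of 10 points.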
